A study of Mus musculus with 12 samples.

Results

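Messenger RNA of 31 genes for cholesterol synthesis and sterol regulation was followed in mouse kidney, out of 55487 genes in a table of read counts. The genes were chosen by name. They comprise 19 synthesis genes, of which 8 encode enzymes from acetyl-CoA to farnesyl diphosphate and 11 encode enzymes from squalene to cholesterol. A further 7 belong to SREBP control and sterol transport, and 5 to LXR signalling, sterol efflux and receptor turnover. The study compared mice lacking ALR (augmenter of liver regeneration, gene Gfer) in the proximal tubule with controls, with and without renal ischemia/reperfusion (I/R). Each of 4 groups had 3 libraries of kidney cortex, from C57BL/6 mice aged 6 to 8 weeks.

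Cholesterol is made from acetyl-CoA through mevalonate and squalene, and the genes of this route are switched on together by SREBP2 when sterols in the endoplasmic reticulum run low. SCAP carries SREBP to the Golgi for cleavage, and the INSIG proteins hold it back when sterols are plentiful. The oxysterol receptors LXRα and LXRβ act on the other side and raise sterol export through ABCA1 and ABCG1, so that synthesis and efflux are usually described as moving in opposite directions. The kidney cortex consists largely of proximal tubules, whose membranes are rich in cholesterol.

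Ctrl libraries came from sham-operated ALR flox/flox mice, which the labels call WT. PT-KO libraries came from sham-operated ALR flox/flox mice that also carried Ggt1-Cre, a transgene active in the proximal tubule. In these mice loxP sites flank exon 2 of the gene. Ctrl+I/R and PT-KO+I/R libraries came from the same genotypes, with both kidneys clamped for 22 min and blood flow then restored for 24 h. Levels are given in CPM, the counts of a gene per megacount of its library with a correction for composition, and always in the order of the library numbers. Those numbers were 1, 2 and 3 in Ctrl, 1, 2 and 4 for PT-KO and Ctrl+I/R, and 2, 3 and 4 for PT-KO+I/R. Ctrl library 3 was placed in its group by its column name alone. The sample titles of that group are numbered 1, 2 and 4, and whether library 3 is number 4 is not given.

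Several libraries stood apart before any sterol gene was examined. Library totals ran from 12165089 to 23123693 counts. Gfer itself was not lower in the knockout groups, at 12.7, 11.4 and 14.4 CPM in Ctrl, 15.3, 20.0 and 17.6 CPM in Ctrl+I/R, 9.96, 17.1 and 15 CPM in PT-KO, and 21.6, 22.8 and 21.6 CPM in PT-KO+I/R. Its gene-level count also holds the exons outside the floxed stretch, so PT-KO and PT-KO+I/R stand below for the libraries labelled so. Ctrl libraries 1 and 2 carried Xist and no Y-linked counts, whereas the other 10 libraries carried Y-linked counts, so comparisons with Ctrl also set the sexes apart. Among injured controls, Ctrl+I/R library 4 had the lowest level of the injury marker Havcr1, at 381 CPM against 785 and 2105 CPM. The summed level of 8 proximal tubule markers was 17164 to 18641 CPM in Ctrl and 17181 to 19536 CPM in PT-KO, so the labelled tissue had its markers, and it was 5417 to 11169 CPM in Ctrl+I/R and 4787 to 5533 CPM in PT-KO+I/R. Of 7 adrenal cortex markers the summed level was at most 3.96 CPM in any library, with 3 to 5 of them at 0 in each group. Ctrl library 1 also carried adipocyte markers, at a summed 46 CPM against 0.277 and 0.305 CPM in the other Ctrl libraries. In bulk tissue, fewer cells of a type and less RNA per cell cannot be told apart.

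The injured groups were compared first. Compared with Ctrl+I/R, 16 of 31 genes (51.6%) were lower in PT-KO+I/R and 3 (9.68%) were higher at an adjusted p under 0.05 (quasi-likelihood test of edgeR, Benjamini-Hochberg adjustment over all tested genes), where 24.4% of all 15281 tested genes were lower and 22.5% were higher. Genes of synthesis and genes of efflux were lower in the same libraries. Of the 19 synthesis genes 10 were lower and 2 higher, of the 7 SREBP control genes 2 were lower, and of the 5 LXR and efflux genes 4 were lower and 1 higher. The median log2 fold change was -0.38 over the 31 genes and -0.005 over all tested genes. Scaling by total counts moved the median of all genes to -0.21, and then 19 genes of the 31 were lower and 2 higher, while the share of higher calls among all genes fell from 48.0% to 28.0%. With same-numbered libraries as a block, 10 of the 31 were called, all lower. Acat3, Hsd17b7, Nr1h2, Nsdhl, Nr1h3, Abcg1, Lss, Fdft1 and Mylip were not. That fit rests on the shared numbers 2 and 4 alone. Calls over all genes fell from 7169 to 1683 with it, and the median of the 31 genes was -0.43.

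After I/R in control mice the pathway did not move as a block. Of 30 genes tested in Ctrl+I/R versus Ctrl, 4 (13.3%) were higher and 3 (10%) lower, close to the 11.4% and 7.97% of all 15567 tested genes. The higher genes were Acat3, Sqle, Msmo1 and Abca1, and the lower ones were Cyp51, Ebp and Sc5d. The number called varied with the libraries used. It was 0 with Ctrl library 1 left out, 1 with Ctrl library 2, 4 with Ctrl library 3, 3 and 4 with library 1 or library 2 of Ctrl+I/R, and 8 with library 4 of Ctrl+I/R. Calls over all genes went from 3019 to 379 with Ctrl library 1 left out, while the log2 fold changes of Acat3 (1.96 and 1.88), Sqle (1.65 and 1.57), Cyp51 (-1.48 and -1.44) and Ebp (-0.74 and -0.77) stayed close. Both Xist-carrying libraries were in Ctrl, so a sex covariate left Ctrl library 3 alone as the control side, with 6 or 12 libraries. Over 12 libraries the log2 fold changes of Acat3, Sqle, Msmo1 and Abca1 were then 2.02, 1.14, 0.65 and 0.91. Those of Cyp51, Ebp and Sc5d were -1.29, -0.77 and -0.53. Hmgcs1, Idi1, Mvd and Nsdhl had -0.69, -0.86, -0.59 and -0.42, in place of -0.20, 0.01, -0.27 and -0.18. Fdft1 and Mylip had 0.35 and 0.51, in place of 0.23 and -0.06. With total counts the share of higher calls among all genes was 75.4% in place of 58.9%, and the median of all genes stood at 0.11.

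In PT-KO kidneys I/R was followed by changes in 29 of 31 genes, 22 lower (71%) and 7 higher (22.6%), beside 32.7% lower and 32.9% higher of all 15155 tested genes. The median over the 31 genes was -0.55, against 0.01 over all tested genes. Without injury, 0 of 30 genes differed between PT-KO and Ctrl, as did 0% of 15291 tested genes by edgeR, although 7 of the 30 and 2573 of all genes had an unadjusted p under 0.05. DESeq2 called 440 genes there, 2 of the 30 among them, namely Lpin1 (0.71, adjusted p = 0.00217) and Fdft1 (-0.53, adjusted p = 0.0225). Without Ctrl library 3, the only male in its group, edgeR called 7 of the 30 and 1930 of all genes. That fit set female Ctrl against male PT-KO libraries, so genotype and sex cannot be told apart in it. A lack of calls with all libraries does not show that the uninjured genotypes were alike.

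The difference between both I/R responses was tested itself, as the knockout by I/R interaction over all 12 libraries. It was negative in 12 of 31 genes (38.7%) and positive in 4 (12.9%), beside 16.4% and 14.3% of 16168 tested genes. The 12 were 8 synthesis genes and Stard4, Nr1h3, Abca1 and Abcg1. With total counts the split was 12 negative and 1 positive. The comparisons share groups (each group enters 2 of the 4 pairwise comparisons and also the interaction), so their values are given side by side and not counted as repeats of each other.

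**Figure D1:**
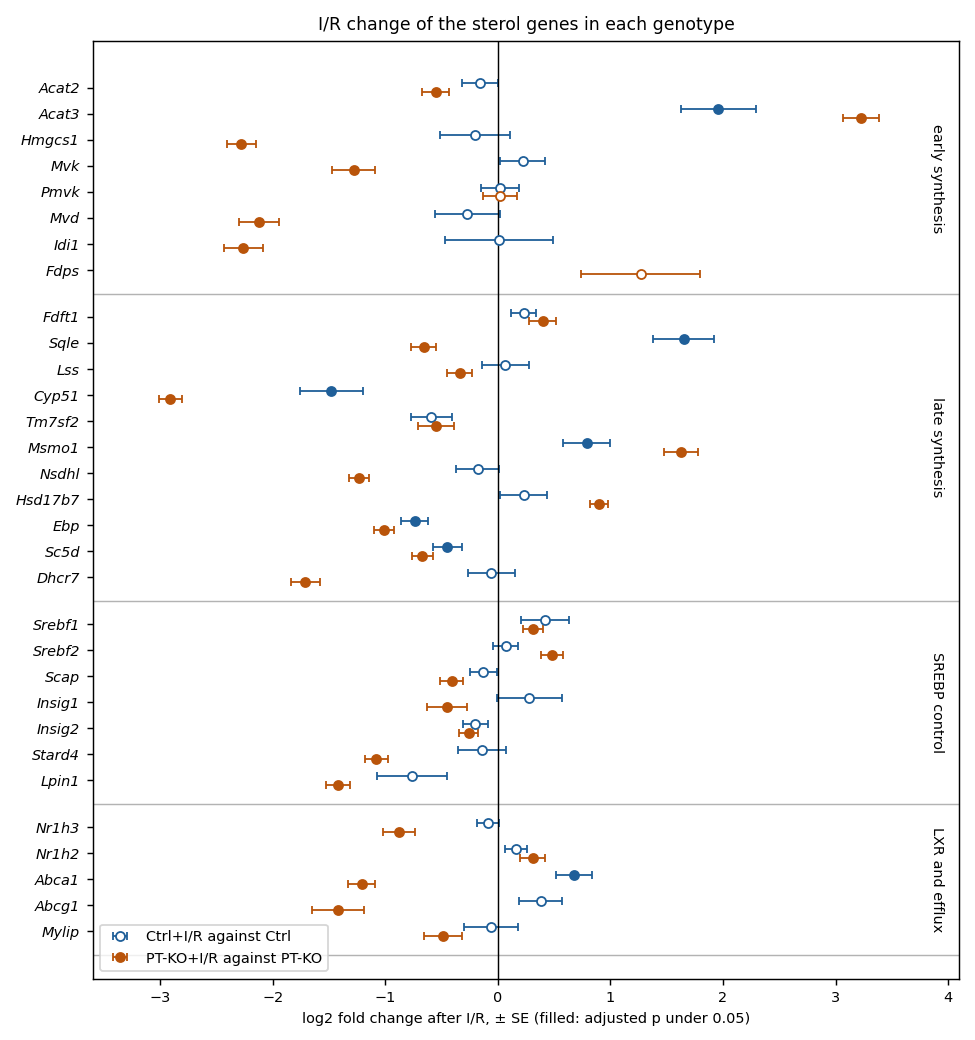
Log2 fold change after I/R (x axis, ± SE from edgeR) of the 31 genes, with Ctrl+I/R versus Ctrl in blue and PT-KO+I/R versus PT-KO in orange, filled at an adjusted p under 0.05 (Fdps was not tested in controls). Most orange points of the synthesis and efflux genes lie to the left of the blue ones, and Sqle (1.65 and -0.66) and Abca1 (0.68 and -1.21) lie on opposite sides of 0.

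Stretches upstream of the RefSeq transcription start (GRCm38.p6) are shown for genes that differed with injury and genotype, because most synthesis genes carried both a CCAAT box and a GC box. RefSeq windows of 250 bases before to 50 bases after the start were found for 25 of the 31 genes. They were searched on both strands for the CCAAT box (CCAAT), the GC box (GGGCGG), the E-box (CACGTG), a sterol element (TCACNCCAC) and the LXR element DR4, and matches may overlap. A CCAAT box was found in 19 of 25 genes (76%) and in 14 of 15 synthesis genes (93.3%), against 41.1% of 27025 genes. A GC box was found in 21 of 25 (84%) and in the same number of synthesis genes (14 of 15), against 38.2% of all. An E-box was found in 6 of 25 genes (24%) against 8.09%, the sterol element in 1 of 25 (4%) against 1.44%, and DR4 in 0 of 25 against 0.0148%. Such matches describe letters in a short window. The stretches below run 5′ to 3′ on the strand of the gene and were ended where an annotated exon of any gene begins, and capitals mark the matches of these motifs. The sites are Hmgcs1 at chr13:119690201-119690350 (+), Mvk at chr5:114444119-114444268 (+), Mvd at chr8:122443423-122443572 (-), Cyp51 at chr5:4104747-4104847 (-), Nsdhl at chrX:72918412-72918520 (+), Hsd17b7 at chr1:169969242-169969355 (-) and Abca1 at chr4:53159896-53160045 (-). The first of these holds the sterol element, TCACCCCAC, 137 bases before the start.
Hmgcs1: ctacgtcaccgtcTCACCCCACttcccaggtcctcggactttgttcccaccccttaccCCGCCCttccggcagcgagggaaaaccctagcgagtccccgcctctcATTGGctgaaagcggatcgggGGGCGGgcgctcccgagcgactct
Mvk: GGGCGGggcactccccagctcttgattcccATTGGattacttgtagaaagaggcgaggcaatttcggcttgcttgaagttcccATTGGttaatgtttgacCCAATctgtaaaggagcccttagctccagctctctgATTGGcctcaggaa
Mvd: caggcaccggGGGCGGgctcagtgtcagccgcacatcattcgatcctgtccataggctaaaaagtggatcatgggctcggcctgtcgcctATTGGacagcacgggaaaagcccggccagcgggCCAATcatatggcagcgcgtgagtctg
Cyp51: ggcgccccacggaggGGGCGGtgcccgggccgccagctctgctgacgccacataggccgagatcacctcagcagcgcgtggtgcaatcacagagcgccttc
Nsdhl: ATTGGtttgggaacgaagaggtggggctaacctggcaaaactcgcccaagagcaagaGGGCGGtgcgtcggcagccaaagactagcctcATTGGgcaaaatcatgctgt
Hsd17b7: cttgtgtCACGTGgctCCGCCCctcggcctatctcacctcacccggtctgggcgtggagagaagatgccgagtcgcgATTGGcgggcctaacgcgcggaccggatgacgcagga
Abca1: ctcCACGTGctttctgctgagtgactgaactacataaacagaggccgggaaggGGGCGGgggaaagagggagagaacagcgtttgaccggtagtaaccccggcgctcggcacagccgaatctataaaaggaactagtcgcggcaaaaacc

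Among the printed stretches, both boxes were found in genes lower in PT-KO+I/R (Hmgcs1, Mvk, Mvd and Nsdhl) and in Hsd17b7, which was higher. Other windows with both boxes belonged to lower genes such as Idi1 and Dhcr7. They also belonged to genes not called between the injured groups, such as Msmo1, Ebp, Sc5d and Srebf2. The printed Abca1 stretch holds a GC box and an E-box and no CCAAT box. In Cyp51 and Hsd17b7 the stretch ends 49 and 36 bases before the RefSeq start, and the Cyp51 window has its CCAAT box in the part left out.

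Of the early route, Hmgcs1, Mvk, Mvd and Idi1, were lower in PT-KO+I/R relative to Ctrl+I/R. Hmgcs1, which makes HMG-CoA, was the most abundant of the 31 genes per length in Ctrl, at 142 CPM per kb of exon, followed by Cyp51 at 84.8 CPM per kb, with ranges that did not overlap (110 to 198 and 74.0 to 91.9). Its level was 504, 544 and 911 CPM in Ctrl, 445, 460 and 792 CPM in Ctrl+I/R, 847, 1084 and 750 CPM in PT-KO, and 179, 185 and 189 CPM in PT-KO+I/R. The PT-KO+I/R libraries lay below all others, and in both control groups 1 library stood high. The log2 fold change was -1.63 ± 0.23 (SE, adjusted p = 0.00122) against Ctrl+I/R and -2.28 ± 0.13 (adjusted p = 4.1e-07) against PT-KO, while Ctrl+I/R versus Ctrl gave -0.20 ± 0.31 (adjusted p = 0.665).

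Mvk phosphorylates mevalonate. It was measured at 10.1, 10.3 and 10.9 CPM in Ctrl, 10.8, 9.81 and 15.9 CPM in Ctrl+I/R, 7.88, 10.6 and 9.62 CPM in PT-KO, and 3.84, 4.40 and 3.29 CPM in PT-KO+I/R. Only the last group was set apart, with a log2 fold change of -1.66 ± 0.24 against Ctrl+I/R (adjusted p = 0.00134) and -1.28 ± 0.19 against PT-KO (adjusted p = 2.4e-04). Mvd, which decarboxylates mevalonate diphosphate to isopentenyl diphosphate, had 34.7, 36.4 and 50.4 CPM in Ctrl, 23.2, 28.3 and 49.4 CPM in Ctrl+I/R, 38.7, 46.6 and 38.8 CPM in PT-KO, and 13.1, 7.87 and 8.31 CPM in PT-KO+I/R. Again every PT-KO+I/R library lay below the 9 others. The log2 fold change of Mvd was -1.81 ± 0.32 against Ctrl+I/R (adjusted p = 0.00303) and -2.12 ± 0.18 against PT-KO (adjusted p = 5.4e-06).

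Idi1 isomerises isopentenyl diphosphate, and it spread widely within Ctrl. Its level was 6.62, 9.58 and 25.3 CPM in Ctrl, 11.6, 11.5 and 18.9 CPM in Ctrl+I/R, 18.1, 22.1 and 18.9 CPM in PT-KO, and 3.24, 4.71 and 4.19 CPM in PT-KO+I/R. The 2 Xist-carrying Ctrl libraries were the low ones, and the Y-carrying Ctrl library lay close to PT-KO. Against Ctrl+I/R the log2 fold change in PT-KO+I/R was -1.77 ± 0.26 (adjusted p = 0.00142), and these 6 libraries were of the same sex. Its annotated exons overlap those of Gm48574 on the opposite strand over 323 bases, and those of Hmgcs1 overlap Gm48342 over 557 bases; whether the counts kept strand is not given in the sources used here.

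Acat3 had the opposite direction. Acat2 and Acat3 are close copies on chromosome 17 that encode acetoacetyl-CoA thiolases, so reads may be split between them. Acat3 was measured at 15.6, 20.9 and 17.1 CPM in Ctrl, 64.5, 105 and 38.7 CPM in Ctrl+I/R, 16.1, 23.1 and 19.1 CPM in PT-KO, and 173, 221 and 158 CPM in PT-KO+I/R. Injury raised it in both genotypes, by 1.96 ± 0.33 on the log2 scale in controls (adjusted p = 0.0136) and by 3.23 ± 0.16 in PT-KO (adjusted p = 1.6e-07), and PT-KO+I/R exceeded Ctrl+I/R by 1.40 ± 0.32 (adjusted p = 0.00875). The control call was lost without Ctrl library 1 (1.88, adjusted p = 0.0627) or library 2 (2.10, adjusted p = 0.0545). Exons of Acat3 overlap those of Tcp1 on the opposite strand over 571 bases.

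Acat2 had 80.4, 81.9 and 93.0 CPM in Ctrl, 65.7, 67.9 and 94.3 CPM in Ctrl+I/R, 76.7, 110 and 95.0 CPM in PT-KO, and 63.6, 68.1 and 61.6 CPM in PT-KO+I/R. The injured groups overlapped (log2 fold change -0.24 ± 0.15, adjusted p = 0.216), and it fell in PT-KO+I/R versus PT-KO (-0.55 ± 0.12, adjusted p = 0.00275). Injured controls gave -0.16 ± 0.16 (adjusted p = 0.489), and the interaction was -0.38 ± 0.22 (adjusted p = 0.205). The remaining early genes did not pass the test in any comparison. Pmvk, the second kinase of the mevalonate route, had group means from 10.3 to 12.4 CPM. Fdps, which makes farnesyl diphosphate, had group means from 0.329 to 1.37 CPM, too few counts to be tested against Ctrl, and its exons overlap Gm43738 on the same strand over 1124 bases.

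**Figure D2:**
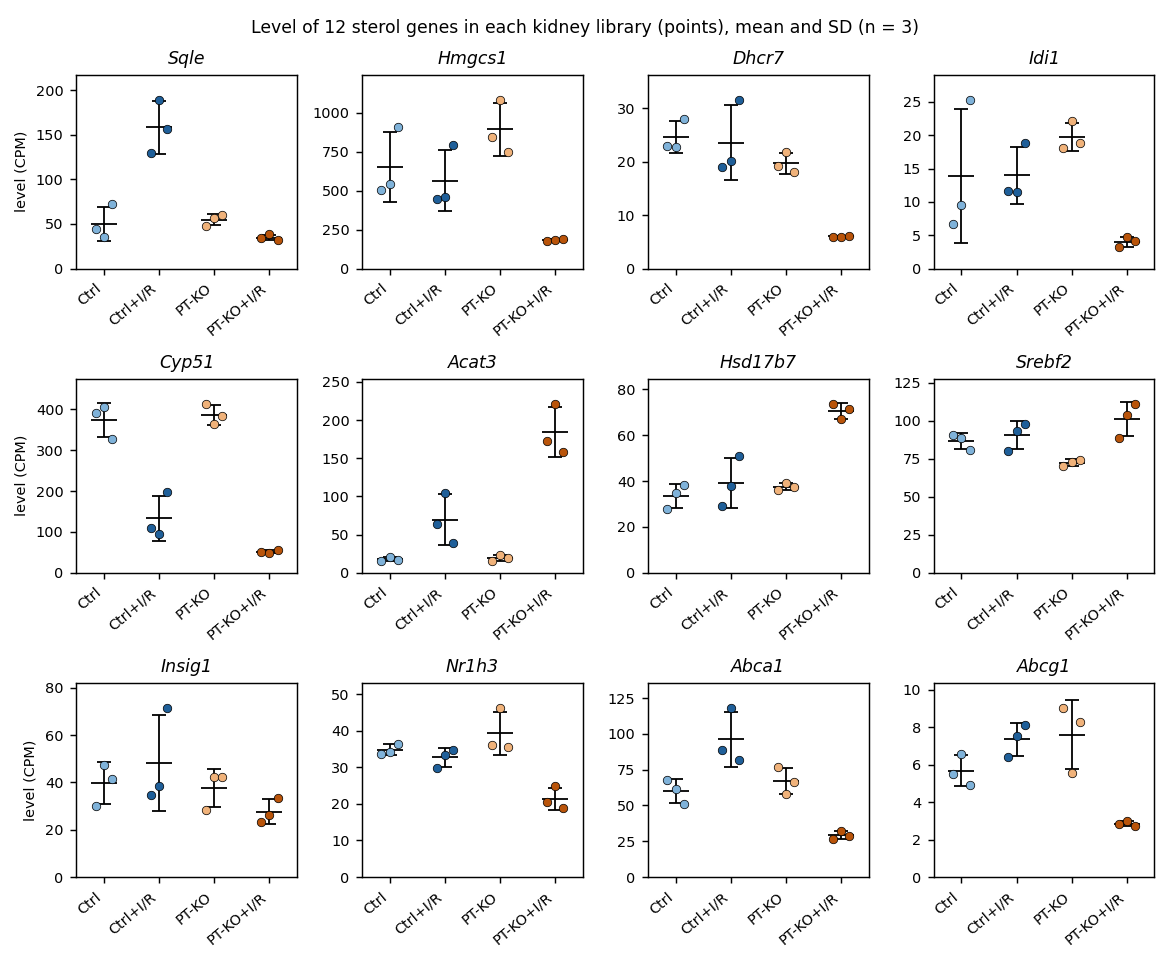
Level in CPM (y axis, from 0) of 12 genes in each of the 12 libraries, with 1 point per library in each group on the x axis, and the group mean with SD (n = 3). Hmgcs1, Dhcr7, Idi1, Abca1 and Abcg1 are lowest in the 3 PT-KO+I/R libraries, Sqle is highest in the 3 Ctrl+I/R libraries, and Acat3 and Hsd17b7 are highest in PT-KO+I/R.

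Sqle had the largest fold change between the injured groups among the late enzymes. It encodes squalene epoxidase, a rate-limiting oxygen-requiring step. Its level was 43.8, 35.6 and 71.8 CPM in Ctrl, 130, 189 and 156 CPM in Ctrl+I/R, 48.0, 56.7 and 59.6 CPM in PT-KO, and 34.2, 38.2 and 32.1 CPM in PT-KO+I/R. Ctrl+I/R lay above every other library, and PT-KO+I/R overlapped the lower end of Ctrl. Sqle rose 3.14-fold in injured controls (log2 1.65 ± 0.27, adjusted p = 0.0123) and fell 1.58-fold in injured PT-KO (-0.66 ± 0.11, adjusted p = 4.2e-04). Between the injured groups it was 4.55-fold lower in PT-KO+I/R (-2.19 ± 0.15, adjusted p = 1.3e-04), and the interaction was -2.30 ± 0.31 (adjusted p = 3.7e-04). The call of the rise in controls was lost without Ctrl library 1 (1.57, adjusted p = 0.0593). The rise stood at 1.14 in the fit to 12 libraries with sex as a covariate, where Ctrl library 3 alone was the control side.

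Dhcr7 converts 7-dehydrocholesterol to cholesterol at the end of the route. It had 22.9, 22.8 and 28.1 CPM in Ctrl, 19.1, 20.1 and 31.6 CPM in Ctrl+I/R, 19.3, 21.8 and 18.0 CPM in PT-KO, and 5.98, 5.96 and 6.19 CPM in PT-KO+I/R. The last group was far below the rest and the tightest. Dhcr7 was lower by -1.97 ± 0.22 on the log2 scale than in Ctrl+I/R (adjusted p = 5.2e-04) and by -1.71 ± 0.13 than in PT-KO (adjusted p = 2.7e-06), against -0.06 ± 0.21 for the injury of controls (adjusted p = 0.862).

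Cyp51, the lanosterol demethylase, was lower in both injured groups. It was measured at 391, 406 and 327 CPM in Ctrl, 110, 94.5 and 197 CPM in Ctrl+I/R, 413, 365 and 383 CPM in PT-KO, and 50.0, 49.1 and 56.2 CPM in PT-KO+I/R. Both injured groups lay below both uninjured groups, and they did not overlap each other. The fall was -1.48 ± 0.28 on the log2 scale in controls (adjusted p = 0.0172) and -2.91 ± 0.10 in PT-KO (adjusted p = 3.6e-08), and PT-KO+I/R was lower than Ctrl+I/R by -1.38 ± 0.26 (adjusted p = 0.00419). Without Ctrl library 1 (-1.44, adjusted p = 0.0678), Ctrl library 2 (-1.40, adjusted p = 0.0689) or Ctrl+I/R library 1 (-1.36, adjusted p = 0.0636) the fall in controls was not called.

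Nsdhl, a C4-demethylation enzyme encoded on the X chromosome, had 52.8, 56.3 and 70.6 CPM in Ctrl, 50.4, 42.0 and 66.2 CPM in Ctrl+I/R, 56.7, 64.5 and 57.7 CPM in PT-KO, and 26.6, 25.1 and 25.1 CPM in PT-KO+I/R. Only PT-KO+I/R stood apart, with -1.05 ± 0.17 against Ctrl+I/R (adjusted p = 0.00212) and -1.23 ± 0.09 against PT-KO (adjusted p = 1.6e-06). Its neighbour in the C4-demethylation complex, Hsd17b7, was higher instead. Hsd17b7 ranged from 67.0 to 73.6 CPM in PT-KO+I/R against 29.2 to 50.8 CPM in Ctrl+I/R (0.84 ± 0.19, adjusted p = 0.00784) and 36.3 to 39.2 CPM in PT-KO (0.90 ± 0.08, adjusted p = 6.9e-06). Msmo1, the methyl oxidase of the same complex, rose with injury in both genotypes, from a mean of 31.2 to 53.7 CPM in controls (0.79 ± 0.21, adjusted p = 0.0395) and from 23.3 to 72.3 CPM in PT-KO (1.63 ± 0.15, adjusted p = 1.0e-05). The call in controls was lost when any of the 6 libraries was left out (0.60 to 0.95), and PT-KO+I/R versus Ctrl+I/R gave 0.43 ± 0.17 (adjusted p = 0.0648).

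Ebp, the sterol isomerase, fell with injury by -0.74 ± 0.12 in controls (adjusted p = 0.0134) and by -1.01 ± 0.09 in PT-KO (adjusted p = 6.2e-06). Sc5d, the desaturase after it, fell by -0.45 ± 0.13 (adjusted p = 0.0448) and -0.67 ± 0.09 (adjusted p = 1.2e-04). Without Ctrl library 1 or 2 the control call of Ebp was lost (-0.77, adjusted p = 0.0517 and -0.70, adjusted p = 0.0605), and that of Sc5d was lost without any 1 of 5 libraries (-0.55 to -0.37). Lss, which closes the ring system to lanosterol, was lower in PT-KO+I/R relative to Ctrl+I/R by -0.62 ± 0.20 (adjusted p = 0.035), a call lost without Ctrl+I/R library 4 (-0.36, adjusted p = 0.0574) or any PT-KO+I/R library. Fdft1, squalene synthase, was lower than in Ctrl+I/R by -0.37 ± 0.11 (adjusted p = 0.0242) but higher than in PT-KO by 0.40 ± 0.12 (adjusted p = 0.0132), where the call was lost without PT-KO library 1 (0.32, adjusted p = 0.0574) and with the replicate block (0.34, adjusted p = 0.0637). Its exons overlap the abundant Ctsb on the opposite strand over 774 bases, and its call against Ctrl+I/R was lost without Ctrl+I/R library 4 (-0.32), PT-KO+I/R library 2 (-0.32) or library 3 (-0.34). Tm7sf2, a sterol reductase, fell in PT-KO after I/R (-0.55 ± 0.16, adjusted p = 0.0105), with a value as large in controls (-0.59 ± 0.18, adjusted p = 0.0618) and an interaction of 0.05 ± 0.22 (adjusted p = 0.874).

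**Figure D3:**
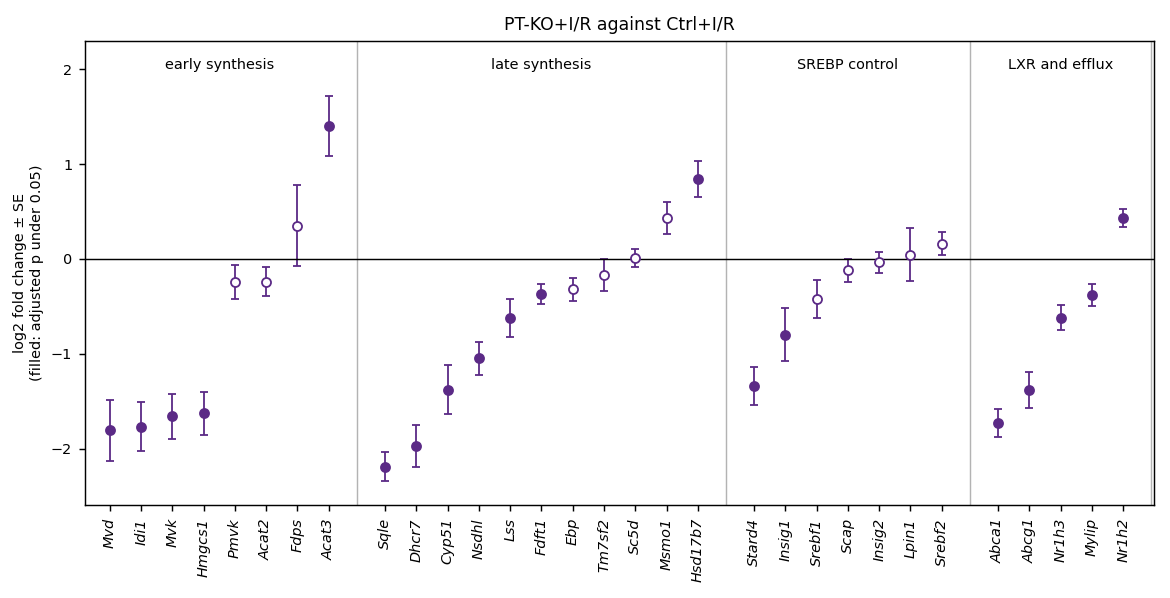
Log2 fold change of each gene in PT-KO+I/R versus Ctrl+I/R (y axis, ± SE from edgeR), grouped by role on the x axis, with filled points at an adjusted p under 0.05. Sqle (-2.19) and Abca1 (-1.73) are the lowest of the late synthesis genes and of the LXR and efflux genes, and Acat3 (1.40), Hsd17b7 (0.84) and Nr1h2 (0.43) are the 3 higher genes.

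Of the 7 genes of SREBP control and sterol transport, 2 were lower between the injured groups (Insig1 and Stard4), near the 24.4% of all genes. With I/R in PT-KO all 7 changed, 2 higher and 5 lower, beside 32.9% higher and 32.7% lower of all genes. Srebf2, the sterol-regulated SREBP gene, had 90.5, 88.9 and 80.6 CPM in Ctrl, 80.1, 93.6 and 98.1 CPM in Ctrl+I/R, 70.0, 73.2 and 74.3 CPM in PT-KO, and 88.9, 104 and 111 CPM in PT-KO+I/R. The injured groups overlapped (0.16 ± 0.12, adjusted p = 0.317), and Srebf2 rose from PT-KO to PT-KO+I/R (0.48 ± 0.10, adjusted p = 0.00159). Srebf1, whose product acts mainly on fatty acid genes, had 33.5, 40.7 and 34.9 CPM in Ctrl, 36.2, 44.1 and 65.5 CPM in Ctrl+I/R, 28.2, 29.4 and 30.2 CPM in PT-KO, and 35.5, 38.0 and 35.4 CPM in PT-KO+I/R. It overlapped between the injured groups (-0.42 ± 0.20, adjusted p = 0.12) and rose from PT-KO to PT-KO+I/R by 0.31 ± 0.09 (adjusted p = 0.0126). That call was lost without PT-KO library 1 (0.28, adjusted p = 0.0536), with the replicate block (0.25, adjusted p = 0.125) and in the fits to 12 libraries without and with sex (0.31 in each, adjusted p = 0.132 and 0.143).

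Scap, the escort of SREBP, was measured at 77.8, 72.5 and 78.3 CPM in Ctrl, 58.7, 72.6 and 76.6 CPM in Ctrl+I/R, 88.1, 91.2 and 74.7 CPM in PT-KO, and 61.6, 70.1 and 60.2 CPM in PT-KO+I/R. It fell with injury in PT-KO (-0.41 ± 0.10, adjusted p = 0.00498), and the injured groups overlapped (-0.12 ± 0.12, adjusted p = 0.452). Insig2, which retains SCAP, had 51.3, 56.5 and 59.0 CPM in Ctrl, 47.6, 45.1 and 51.9 CPM in Ctrl+I/R, 55.0, 57.4 and 57.1 CPM in PT-KO, and 51.8, 45.3 and 44.9 CPM in PT-KO+I/R. It fell with injury in PT-KO (-0.26 ± 0.09, adjusted p = 0.0209), though not in 4 of 6 leave-one-out fits (-0.32 to -0.22), and gave -0.03 ± 0.11 (adjusted p = 0.816) between the injured groups.

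Insig1, which retains SCAP and is itself a target of SREBP, had 30.2, 47.5 and 41.5 CPM in Ctrl, 34.7, 38.4 and 71.4 CPM in Ctrl+I/R, 28.3, 42.2 and 42.2 CPM in PT-KO, and 23.1, 26.3 and 33.6 CPM in PT-KO+I/R. Ctrl+I/R library 4 was the highest of all. The difference between the injured groups was -0.80 ± 0.28 (adjusted p = 0.0465) and shrank to -0.41 (adjusted p = 0.0852) without that library, and it was also not called without PT-KO+I/R library 2 (-0.68), 3 (-0.75) or 4 (-0.96). Against PT-KO it was -0.45 ± 0.18 (adjusted p = 0.048), with overlapping ranges and a call lost in 4 of 6 such fits (-0.62 to -0.33).

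Stard4, a cytosolic sterol carrier, had 134, 155 and 123 CPM in Ctrl, 101, 105 and 168 CPM in Ctrl+I/R, 106, 93.6 and 115 CPM in PT-KO, and 52.9, 46.3 and 49.9 CPM in PT-KO+I/R. The last group lay below the rest, by -1.34 ± 0.20 against Ctrl+I/R (adjusted p = 0.00162) and -1.08 ± 0.10 against PT-KO (adjusted p = 8.3e-06). Lpin1, a phosphatidate phosphatase that also restrains SREBP in the nucleus, had 86.8, 74.1 and 107 CPM in Ctrl, 47.6, 32.4 and 78.1 CPM in Ctrl+I/R, 138, 168 and 130 CPM in PT-KO, and 58.6, 56.2 and 49.2 CPM in PT-KO+I/R. PT-KO was the highest group, and Lpin1 fell from it by -1.42 ± 0.11 (adjusted p = 3.1e-06), whereas the injured groups overlapped (0.04 ± 0.28, adjusted p = 0.91).

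On the efflux side, Abca1 rose with injury in controls and fell in PT-KO. Abca1 loads cholesterol onto apolipoprotein A-I. It was measured at 67.6, 61.6 and 51.2 CPM in Ctrl, 88.7, 118 and 82.1 CPM in Ctrl+I/R, 76.7, 58.2 and 66.7 CPM in PT-KO, and 26.6, 32.2 and 28.5 CPM in PT-KO+I/R. Ctrl+I/R was the highest group and PT-KO+I/R the lowest, without overlap with any other. The log2 fold change was 0.68 ± 0.16 in injured controls (adjusted p = 0.031), -1.21 ± 0.12 in injured PT-KO (adjusted p = 1.6e-05) and -1.73 ± 0.15, or 3.31-fold lower, in PT-KO+I/R versus Ctrl+I/R (adjusted p = 2.5e-04). Leaving out any 1 library but Ctrl+I/R library 4 took the adjusted p of the rise in controls above 0.05 (0.53 to 0.78, adjusted p = 0.0554 to 0.096), and the interaction was -1.88 ± 0.22 (adjusted p = 1.6e-04).

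Abcg1, which exports sterols to larger lipoproteins, was lowest in the same libraries. Its level was 5.52, 6.59 and 4.93 CPM in Ctrl, 6.42, 7.51 and 8.15 CPM in Ctrl+I/R, 9.02, 5.54 and 8.28 CPM in PT-KO, and 2.82, 2.98 and 2.71 CPM in PT-KO+I/R. PT-KO+I/R lay below all other libraries, by -1.38 ± 0.19 against Ctrl+I/R (adjusted p = 0.00121) and -1.42 ± 0.23 against PT-KO (adjusted p = 4.0e-04).

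The 2 LXR genes differed in opposite directions. Nr1h3 (LXRα) had 33.8, 34.2 and 36.5 CPM in Ctrl, 29.9, 33.5 and 34.8 CPM in Ctrl+I/R, 36.1, 46.2 and 35.6 CPM in PT-KO, and 20.5, 24.8 and 18.9 CPM in PT-KO+I/R. It was lower in PT-KO+I/R by -0.62 ± 0.13 against Ctrl+I/R (adjusted p = 0.00695) and by -0.88 ± 0.14 against PT-KO (adjusted p = 3.2e-04). Nr1h2 (LXRβ) had 54.2, 48.0 and 47.1 CPM in Ctrl, 54.1, 57.2 and 54.8 CPM in Ctrl+I/R, 59.6, 68.4 and 53.4 CPM in PT-KO, and 77.3, 80.0 and 68.1 CPM in PT-KO+I/R. It was higher than in Ctrl+I/R by 0.43 ± 0.10 (adjusted p = 0.00751), a call not reached with total counts or with the replicate block. Mylip, an LXR target whose product marks lipoprotein receptors for degradation, was lower by -0.38 ± 0.12 (adjusted p = 0.0319), and that call was lost without Ctrl+I/R library 2 (-0.38, adjusted p = 0.0522) or 4 (-0.34, adjusted p = 0.0791) or PT-KO+I/R library 3 (-0.36, adjusted p = 0.101) or 4 (-0.29, adjusted p = 0.124).

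Markers of several cell types differed between the same injured groups. Their counts are to be read beside the 24.4% lower and 22.5% higher of all tested genes. Macrophages are known for high Abca1, Abcg1 and Nr1h3. Of 8 macrophage markers, 5 were lower and 2 higher in PT-KO+I/R relative to Ctrl+I/R, with Adgre1 at 0.193 to 0.512 CPM against 5.84 to 9.99 CPM and Lyz2 at 3.29 to 5.72 CPM against 41.8 to 99.5 CPM, but Cd14 at 100 to 194 CPM against 11.1 to 31.6 CPM. Their summed level was 88.8 to 109 CPM in Ctrl, 155 to 262 CPM in Ctrl+I/R, 91.9 to 96.7 CPM in PT-KO and 159 to 261 CPM in PT-KO+I/R, and no marker was at 0 in all libraries of a group. Of the 8 proximal tubule markers, 4 were lower and none higher, among them Lrp2 at 646 to 785 CPM against 1272 to 2725 CPM. Of 6 tubular injury markers 3 were higher and 1 lower. Of 4 markers of the thick ascending limb 3 were lower, among them Slc12a1 (-3.40 ± 0.76, adjusted p = 0.00824), and of 6 distal tubule and collecting duct markers 2 were lower. Of 6 fibroblast markers 3 were lower, with Col1a1 at -3.47 ± 0.32 (adjusted p = 3.0e-04), and their summed level was 546 to 713 CPM in Ctrl+I/R and 125 to 222 CPM in PT-KO+I/R. Of 6 endothelial markers 4 were higher and 1 lower, and 4 of 5 tested neutrophil markers were higher, with a summed level of 9.16 to 39.3 CPM in Ctrl+I/R and 52.9 to 81.9 CPM in PT-KO+I/R. The adipocyte marker Cidec was higher as well (3.05 ± 0.26, adjusted p = 2.3e-04). The part that these cell types and the depth of injury have in the sterol results was not tested.

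**Figure D4:**
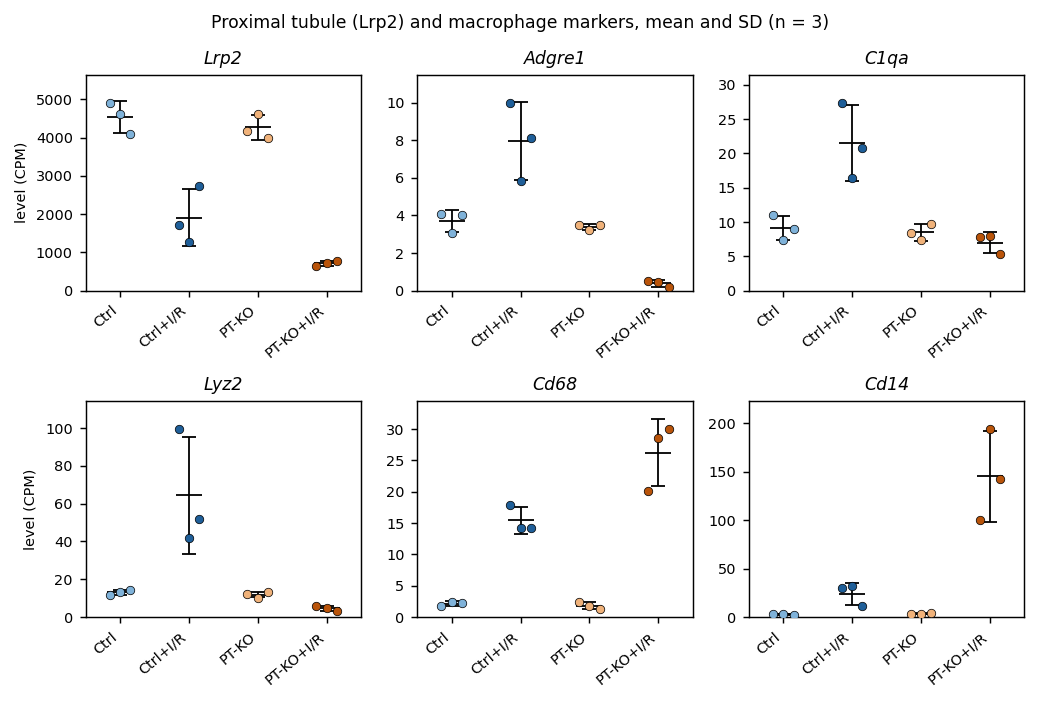
Level in CPM (y axis, from 0) of the proximal tubule marker Lrp2 and of 5 macrophage markers in each library, by group on the x axis, with the mean and SD (n = 3). In PT-KO+I/R, Lrp2, Adgre1, C1qa and Lyz2 lie below Ctrl+I/R, while Cd68 and Cd14 lie above it.

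The level of each list was then summarised by its median gene in each library. The median log2 CPM of the 19 synthesis genes was 4.83, 5.17 and 5.12 in Ctrl, 5.15, 5.29 and 5.64 for Ctrl+I/R, 4.53, 4.68 and 4.81 for PT-KO, and 4.84, 4.88 and 5.02 in PT-KO+I/R. That of the 5 LXR and efflux genes was 5.77, 5.45 and 5.21 in Ctrl, 5.4, 5.54 and 5.60 for Ctrl+I/R, 5.91, 5.55 and 5.35 for PT-KO, and 4.76, 5.03 and 4.86 in PT-KO+I/R. The efflux median was lowest in the PT-KO+I/R libraries, whereas the synthesis median there lay above PT-KO. Gene by gene, 13 of 19 synthesis genes were lower and 4 higher in PT-KO+I/R versus PT-KO, with a median log2 fold change of -0.66, and 4 of 5 LXR and efflux genes were lower, with a median of -0.88. Over all genes of that comparison 32.7% were lower and 32.9% higher, with a median of 0.01. The median level can fall on different genes in different libraries, so it does not measure a balance of synthesis and efflux. The synthesis median less the efflux median was -0.44 ± 0.44 (SD, n = 3) in Ctrl, -0.15 ± 0.17 in Ctrl+I/R, -0.93 ± 0.42 in PT-KO and 0.03 ± 0.17 in PT-KO+I/R, given as a description with no test.

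**Figure D5:**
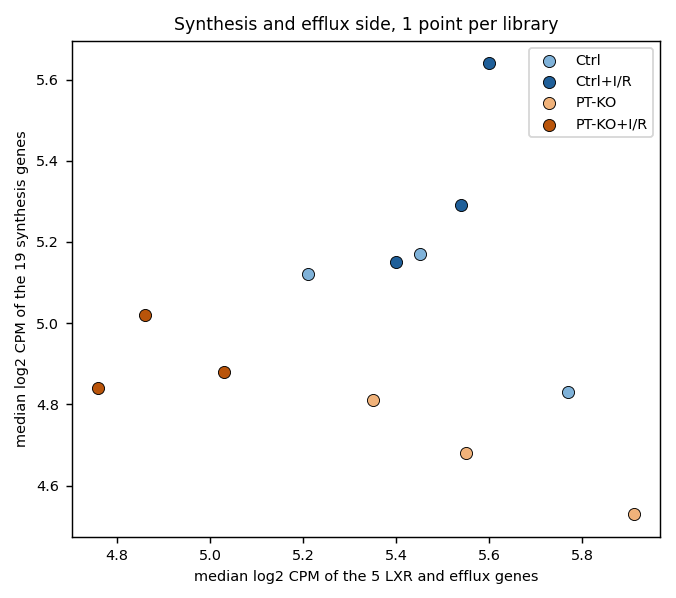
Median log2 CPM of the 5 LXR and efflux genes (x axis) and of the 19 synthesis genes (y axis), with 1 point per library and colour by group. The 3 PT-KO+I/R libraries sit at the left, between 4.76 and 5.03 on the x axis, and Ctrl+I/R library 4 is the highest, at 5.64 on the y axis.

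In other gene lists around the pathway, counts are to be read against the 24.4% lower and 22.5% higher of all genes in PT-KO+I/R versus Ctrl+I/R. Of 12 further genes for SREBP processing and sterol sensing, 3 were lower and 3 higher, close to those shares. Erlin1, an endoplasmic reticulum protein that binds cholesterol and restrains SREBP, had 112, 113 and 123 CPM in Ctrl+I/R and 39.1, 38.3 and 28.2 CPM in PT-KO+I/R (-1.73 ± 0.14, adjusted p = 2.0e-04). The site-1 protease gene Mbtps1 was lower (-0.73 ± 0.11, adjusted p = 0.00161) and the site-2 protease gene Mbtps2 higher (0.81 ± 0.11, adjusted p = 9.2e-04), as was Ufd1, which takes part in degradation at the endoplasmic reticulum (0.93 ± 0.09, adjusted p = 3.8e-04).

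Of 13 genes on the prenyl branch, which uses farnesyl diphosphate for ubiquinone, dolichol and protein prenylation, 4 were lower and 4 higher, with a median log2 fold change of 0.03 against -0.005 over all genes. The lower ones included Nus1, a dolichol enzyme (-0.65 ± 0.21, adjusted p = 0.0378), and Pdss2, which builds the ubiquinone tail (-0.57 ± 0.15, adjusted p = 0.0138). Rabggta (0.66 ± 0.09, adjusted p = 0.00114) and Rce1 (0.58 ± 0.13, adjusted p = 0.00797), which act in protein prenylation, were higher. The call of Nus1 was lost without library 1 or 4 of Ctrl+I/R or any PT-KO+I/R library, and that of Rce1 with total counts (0.37).

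Lipoprotein uptake and lysosomal release had 2 lower and 2 higher genes of 12, no more than those shares. The scavenger receptor gene Msr1, a macrophage gene, was lower (-2.15 ± 0.56, adjusted p = 0.015), Vldlr was lower (-0.55 ± 0.14, adjusted p = 0.0124), and Scarb2 (1.43 ± 0.15, adjusted p = 4.5e-04) and Cd36 (0.78 ± 0.21, adjusted p = 0.0179) were higher. Leaving out PT-KO+I/R library 4 ended the calls of Msr1 and Vldlr, leaving out library 3 those of Vldlr and Cd36, and Cd36 was also not called without library 1 or 4 of Ctrl+I/R, with total counts or in the fit to 12 libraries. Of 12 other LXR targets and partners 9 could be tested, with 4 lower and 3 higher. Pltp (-1.55 ± 0.42, adjusted p = 0.0176), Fasn (-1.12 ± 0.27, adjusted p = 0.0109) and Scd1 (-1.04 ± 0.27, adjusted p = 0.0141) were lower, while Lpcat3, a phospholipid acyltransferase and also an LXR target, was higher (0.81 ± 0.12, adjusted p = 0.00149). Pltp was not called without Ctrl+I/R library 1 or PT-KO+I/R library 3 or 4, nor Scd1 in the fit to 12 libraries. Of 12 genes for sterol esterification and oxidation 2 were higher, Ch25h (1.03 ± 0.34, adjusted p = 0.0385) and Lipe (0.68 ± 0.15, adjusted p = 0.00821), the former not without Ctrl+I/R library 1 or PT-KO+I/R library 3 or 4, or with total counts. Ch25h, which makes 25-hydroxycholesterol, had already risen in injured controls, from 0.451, 0.427 and 0.111 CPM to 6.69, 8.56 and 2.97 CPM (4.18 ± 0.56, adjusted p = 0.00758). With sex as a covariate the value was 5.70 on these 6 libraries and in the fit to 12. The control side was then Ctrl library 3 alone, at 0.111 CPM. Over the 40 called values followed in these lists, 435 of 571 alternative values kept the call, 136 lost it and 0 reversed.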

How the data were processed

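Total RNA was isolated with TRIzol (the labels also name an RNeasy kit), and Illumina libraries were sequenced. The authors deposited a single table of counts, as whole numbers for each gene and without normalization. Alignment with HISAT2 2.0.4 to mm10 is named in the submitters' processing notes. The count program, the annotation and the strandedness are not given in the sources used here. Symbols, lengths and exon overlaps were taken from GENCODE M21, where 55141 of 55487 identifiers had a symbol.

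Counts were filtered with filterByExpr, scaled by TMM, and fitted in edgeR 4.0.16 (R 4.3.3) for its quasi-likelihood test, using 6 libraries per comparison and all 12 for the interaction. Calls needed an adjusted p (Benjamini-Hochberg) below 0.05. Totals ran from 12165089 to 23123693 counts per library. Exact two-sided permutation tests of 3 against 3 libraries cannot go below 0.1, so single genes rest on edgeR. The scripts were tested on simulated counts. Medians use log2(CPM + 0.5). Libraries are separate samples by their labels, which name no mice, so p-values measure the spread between these samples. Replicates of a group differed beyond counting error (chi-square per degree of freedom 7.63 to 60.9), so none was a repeat deposit. Same-numbered libraries did not deviate together (median r = -0.03 over 12 pairs, 1 above 0.1), so no pairing was used.

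The genes and lists were chosen with earlier results of these data known. Values in every library are printed for genes called with an absolute log2 fold change of at least 1 in PT-KO+I/R versus Ctrl+I/R or the interaction, for the 2 leading genes of each role, and for the regulators, Abca1, Abcg1, Acat2 and Acat3, and up to 4 called genes of each other list are named. Alternatives were DESeq2 1.42.0, 2 other scalings, 2 other filters, 1 fit to 12 libraries, a replicate block, sex as a covariate and each library left out. The covariate in a fit to 12 libraries was added after the counts had been seen.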

Additional observations from a re-analysis of the deposited data

Results flagged for a closer look

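In 16 genes the I/R response differed between genotypes by the interaction test of edgeR (log2 change in PT-KO less that in Ctrl, adjusted over 16168 genes). Among early synthesis genes the difference was -2.07 for Hmgcs1, -1.49 for Mvk, -1.83 for Mvd, -2.27 for Idi1 and 1.28 for Acat3. Among late ones it was -2.30 for Sqle, -1.42 for Cyp51, -1.64 for Dhcr7, -1.04 for Nsdhl, 0.85 for Msmo1 and 0.69 for Hsd17b7. For the remaining genes it was 0.42 for Srebf2, -0.93 for Stard4, -0.78 for Nr1h3, -1.88 for Abca1 and -1.79 for Abcg1.

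The 12 negative differences were called without any 1 of the 12 libraries. The positive ones were not. Acat3 lost its call without Ctrl library 2, Ctrl+I/R library 1, PT-KO library 1 or 4, or PT-KO+I/R library 3, with a range of 0.99 to 1.69 over all 12 such fits. Msmo1, Hsd17b7 and Srebf2 lost theirs in 7, 10 and 9 of them, with ranges of 0.71 to 1.05, 0.51 to 0.91 and 0.34 to 0.51. Sqle and Abca1 were the genes called higher after I/R in Ctrl and lower after I/R in PT-KO.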

How the results depend on the processing

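No value of a called gene changed its direction under any alternative. In PT-KO+I/R versus Ctrl+I/R the 19 called genes kept their call in 239 of 266 alternative values, and left-out libraries gave 15 to 20 called genes (12 to 17 lower, 3 to 4 higher; 4918 to 7509 of all genes). With the replicate block, 10 were called, 0 higher and 10 lower (1683 of all genes): Hmgcs1, Mvk, Mvd, Idi1, Sqle, Cyp51, Dhcr7, Insig1, Stard4 and Abca1. In Ctrl+I/R versus Ctrl the count was 0 with sex as a covariate (0 higher, 0 lower, 1 of all genes), 5 were lower in the fit to 12 libraries (4938 of all genes), and left-out libraries gave 0 to 8 (0 to 4 higher, 0 to 4 lower, 379 to 4061 of all genes). In PT-KO versus Ctrl 2 genes were called by DESeq2 (440 of all genes) and without the low-count filter (388), 0 with total counts (1 of all genes) or sex as a covariate (4), and 5 with the replicate block (1378), namely Lpin1, Idi1, Hmgcs1, Fdft1 and Stard4. That block fit rests on libraries 1 and 2, the only shared numbers. It therefore set Ctrl libraries with Xist against PT-KO libraries with Y-linked counts, and genotype and sex cannot be told apart in it. Left-out libraries gave 0 to 7 in PT-KO versus Ctrl (0 to 1930 of all genes). The upper values came without Ctrl library 3, where the sexes were set apart in the same way.

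In PT-KO+I/R versus PT-KO left-out libraries gave 25 to 28 (5 to 7 higher, 19 to 21 lower, 9111 to 10262 of all genes). For the interaction they gave 12 to 16 (0 to 4 higher, 12 to 14 lower, 3622 to 5509 of all genes). There the higher genes numbered 1 with total counts or sex as a covariate (3233 of all genes) and 0 with the replicate block, which called 11 of the 31 (3215 of all genes). The synthesis median less the efflux median ran without single libraries from -0.61 to -0.19 in Ctrl, -0.25 to -0.10 in Ctrl+I/R, -1.12 to -0.70 in PT-KO and -0.04 to 0.13 in PT-KO+I/R. Sex could not be fitted where all 6 libraries had 1 sex. Wherever Ctrl entered a fit, a sex covariate left Ctrl library 3 alone to stand for that group. The causes were not tested.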

Other observations

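Cyp7b1, an oxysterol hydroxylase that is known to be higher in male kidney, had 2.66 and 3.11 CPM in the Ctrl libraries that carried Xist and 232 CPM in Ctrl library 3, 201, 352 and 262 CPM in PT-KO, 55.0, 29.2 and 71.0 CPM in Ctrl+I/R, and 13.5, 41.2 and 36.9 CPM in PT-KO+I/R. It fell with I/R in PT-KO by -3.13 ± 0.35 on the log2 scale (edgeR, adjusted p = 3.1e-05), where all libraries carried Y-linked counts. The desaturase gene Scd1 had the opposite order in uninjured kidneys, with 824 and 687 CPM in Ctrl libraries 1 and 2, 143 CPM in Ctrl library 3, and 124, 97.6 and 208 CPM in PT-KO. Lrp8, a lipoprotein receptor gene, rose with I/R in both genotypes, from 5.17, 4.27 and 2.16 CPM to 13.3, 22.4 and 6.19 CPM in controls (1.86 ± 0.49, adjusted p = 0.0394, not called with sex as a covariate or without any 1 library but Ctrl+I/R library 4) and from 2.21, 1.24 and 2.02 CPM to 20.9, 26.9 and 25.9 CPM in PT-KO (3.76 ± 0.21, adjusted p = 3.5e-07). These genes were chosen after their values had been seen.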
